A study of Homo sapiens with 6 samples.

Results

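The genes described here are 8 genes of the plasminogen activator system and of the serpin family, taken from the count files by gene name: PLAU, PLAUR, PLAT, SERPINE2, SERPINB5, SERPINB6, SERPINA1 and SERPINH1. They are 8 of 32029 genes listed in the files, and each name matched 1 row. RNA sequencing was performed on SW480, an established human colorectal cancer cell line, 48 h after transfection with a control siRNA (siNC) or with siRNA against ZEB1 (siZEB1), with 3 cultures in each group. The comparison asks how the RNA of these genes changed when ZEB1, a transcription factor that binds E-box sequences and is a known driver of epithelial-mesenchymal transition, was knocked down. The control cells carried the genotype label WT and the other cells the label ZEB1 knockdown. All 6 cultures came from this 1 line, and the siRNA sequences are not given in the sources used here.

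Plasmin is a broad serine protease that dissolves fibrin and cleaves other matrix proteins, and it is formed when an activator cuts the zymogen plasminogen. The urokinase-type activator uPA, encoded by PLAU, works at the cell surface on its receptor uPAR, encoded by PLAUR, and is linked to invasion in many carcinomas, whereas the tissue-type activator tPA, encoded by PLAT, is best known for dissolving clots. Serpins are proteins that mostly trap and inactivate serine proteases, and among them PAI-2 (SERPINB2) and protease nexin-1 (SERPINE2) inhibit plasminogen activators.

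Total counts were between 19040636 and 22357633 reads per library. ZEB1 had 1247, 1276 and 908 reads with siNC, and only 136, 132 and 162 after knockdown. Its fitted change was -2.85 on the log2 scale (SE 0.11, adjusted p = 4.63e-12 by edgeR's quasi-likelihood test), and each library matched its label. Of the 9 colorectal epithelial markers tested, 4 were higher and 2 lower. KRT8 and KRT18 were abundant in every culture, and EPCAM rose by 3.05 and VIL1 by 2.34 on the log2 scale while CDX2 fell by 1.30. CEACAM5 and CDH17, which mark colon epithelium, had at most 1 and 5 reads in any culture. The summed level of the 12 epithelial markers in the files was 4818 to 5441 CPM (reads scaled to library size) with siNC and 5333 to 6008 CPM with siZEB1, against at most 16.2 CPM for fibroblast markers, 1.41 CPM for immune markers and 2.95 CPM for endothelial markers in any culture. The part of the shift in epithelial markers in the results below was not tested. In a bulk sample, fewer cells expressing a gene and less RNA per cell cannot be told apart.

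Of the 8 genes, 6 had enough reads to be tested, 1 rose (PLAU), 2 fell (PLAT and SERPINE2) and 3 did not pass an adjusted p of 0.05 (PLAUR, SERPINB6 and SERPINH1). Over all 14996 genes tested the same threshold called 40.2%, with 19.0% higher and 21.2% lower, so 3 calls among 6 genes is close to the background share. The groups did not overlap at 4 of the 6 genes, against 49.5% of all genes tested. The median log2 fold change of the 6 genes was -0.04, beside -0.01 over all genes tested. With the fold limit of 1.5 and an unadjusted p under 0.05 that the study used, PLAT and SERPINE2 passed, against 16.5% of all genes tested, and both also passed at an unadjusted p under 0.001, against 11.3%.

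**Figure D1:**
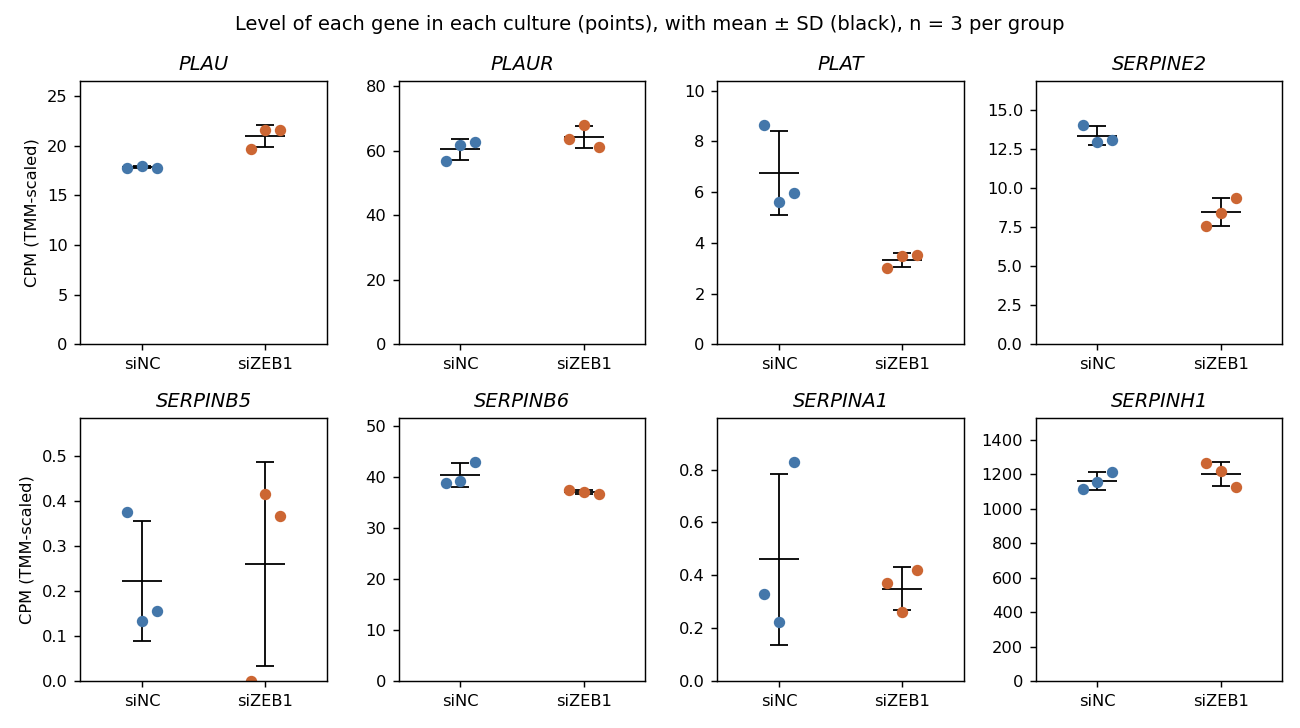
Level of each of the 8 genes in each culture in CPM scaled by TMM factors (y axis, linear from 0), with points for the 3 siNC and 3 siZEB1 cultures and black bars for the mean ± SD. PLAT lay between 5.63 and 8.65 CPM with siNC and between 3.02 and 3.50 CPM with siZEB1, while the groups overlapped at PLAUR, SERPINH1, SERPINA1 and SERPINB5.

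PLAU, the gene of uPA, lies at chr10:73909177-73917497 on the plus strand (hg38). Its level was 17.7, 18.0 and 17.8 CPM in the siNC cultures and 19.7, 21.6 and 21.6 CPM in the siZEB1 cultures. Every siZEB1 culture was above every siNC culture, and the siNC values lay very close together. The means were 17.8 ± 0.11 and 21.0 ± 1.1 CPM (SD, n = 3 each), a 1.18-fold rise. The log2 fold change was 0.24 (SE 0.09, 95% interval 0.05 to 0.42, adjusted p = 0.0367). This rise stood close to the threshold and was lost in 8 of the 12 alternative fits, among them those without siNC culture 1, 2 or 3 and without siZEB1 culture 2 or 3, with adjusted p-values of 0.0315 to 0.121 over all 12. Part of the PLAU exons, 31.1% of their bases, is overlapped on the opposite strand by C10orf55, and the strand setting of the counting is not given in the sources used here. C10orf55 itself had 2, 4 and 0 reads with siNC and 1, 3 and 3 with siZEB1. Whether the overlap affected the count of PLAU was not tested, and without the strand setting these reads cannot show it.

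PLAUR, the gene of the uPA receptor, a surface protein held by a lipid anchor, lies at chr19:43646095-43670547 on the minus strand. Its level was 56.7, 61.9 and 62.8 CPM with siNC and 63.8, 68.0 and 61.1 CPM with siZEB1. The groups overlapped, with the lowest siZEB1 culture below the highest siNC cultures. The log2 fold change was 0.09 (SE 0.07, 95% interval -0.06 to 0.24, adjusted p = 0.339), so a rise of the size seen at PLAU lies inside this interval. The number of PLAU reads per PLAUR read was 0.313, 0.290 and 0.283 with siNC and 0.309, 0.318 and 0.354 with siZEB1, with overlap between the groups (exact permutation p = 0.2).

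PLAT, the gene of tPA, lies at chr8:42175233-42207724 on the minus strand and showed the largest change among the 6 genes tested. It had 184, 126 and 115 reads with siNC, against 57, 67 and 67 after ZEB1 knockdown. On the CPM scale these were 8.65, 5.63 and 5.97 with siNC and 3.02, 3.48 and 3.50 with siZEB1. The groups were apart, and siNC culture 1 stood above its 2 companions. The means were 6.75 ± 1.66 and 3.34 ± 0.27 CPM (SD, n = 3 each), 2.02-fold lower with siZEB1. The log2 fold change was -1.02 (SE 0.18, 95% interval -1.39 to -0.64, adjusted p = 0.000215), and without siNC culture 1 it was -0.80 (adjusted p = 0.00126).

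The activators thus moved in opposite directions in the fits, and their ratio within each culture shifted. The larger part of this shift was the fall of PLAT (-1.02 on the log2 scale), beside 0.24 for PLAU. The call of PLAU was lost in 8 of the 12 alternative fits. There were 2.05, 3.19 and 2.98 PLAU reads per PLAT read with siNC and 6.53, 6.21 and 6.18 with siZEB1. The geometric mean of the ratio was 2.34-fold higher with siZEB1 and the groups did not overlap. The exact two-sided permutation test gave p = 0.1 for this ratio, the smallest value that 3 cultures against 3 allow, and 0.125 after Benjamini-Hochberg adjustment over the 5 read ratios examined, which were chosen after the values had been seen.

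SERPINE2 encodes protease nexin-1, a secreted serpin that inhibits thrombin, uPA, tPA and plasmin, and lies at chr2:223975112-224039319 on the minus strand. Its level was 14.1, 12.95 and 13.1 CPM with siNC and 7.58, 8.43 and 9.41 CPM with siZEB1. Every siZEB1 culture was well below every siNC culture. The means were 13.4 ± 0.60 and 8.47 ± 0.92 CPM (SD, n = 3 each), 1.58-fold lower with siZEB1. The log2 fold change was -0.66 (SE 0.11, 95% interval -0.89 to -0.43, adjusted p = 0.000141), and it stayed between -0.74 and -0.58 when single cultures were left out. The number of PLAT reads per SERPINE2 read was 0.615, 0.434 and 0.455 with siNC and 0.399, 0.414 and 0.372 with siZEB1, apart by a narrow margin (exact permutation p = 0.1).

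SERPINB2, the gene of PAI-2, another inhibitor of uPA and tPA, had between 0 and 2 reads in every culture and could not be tested. The plasminogen gene PLG was not among the 32029 genes listed and was not analysed here.

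**Figure D2:**
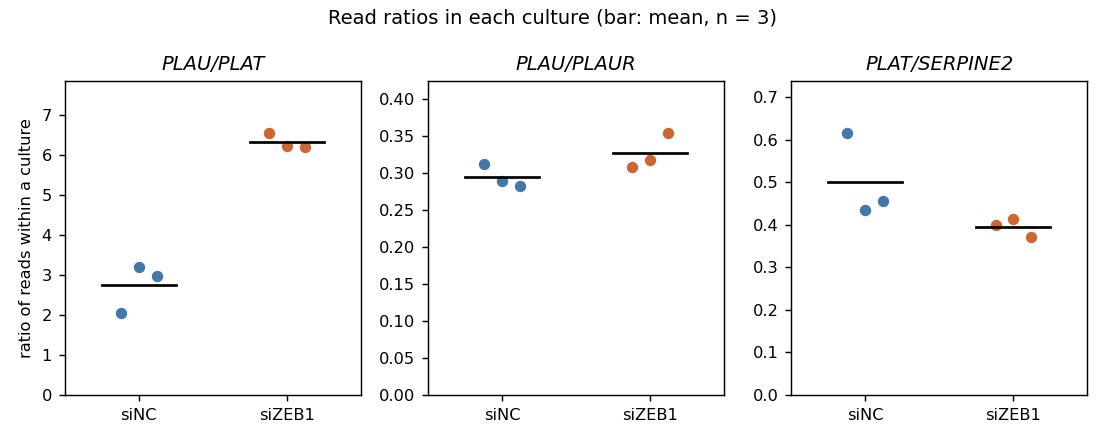
Number of reads of the first gene per read of the second gene within each culture (y axis, a ratio on a linear scale from 0), with a point per culture and a bar at the mean of 3. PLAU/PLAT lay between 2.05 and 3.19 with siNC and between 6.18 and 6.53 with siZEB1, and the groups overlapped for PLAU/PLAUR but not for PLAT/SERPINE2.

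SERPINB6, an intracellular serpin that inhibits trypsin-like proteases and cathepsin G, lies at chr6:2948159-2972165 on the minus strand. Its level was 38.9, 39.2 and 43.1 CPM with siNC and 37.4, 37.2 and 36.7 CPM with siZEB1. The siZEB1 cultures were all lower, but by less than the distance between siNC culture 3 and the other two. The log2 fold change was -0.12 (SE 0.07, 95% interval -0.28 to 0.03, adjusted p = 0.201), so the difference did not pass the test although the groups did not overlap.

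SERPINH1 encodes HSP47, a serpin without protease inhibition that serves as a chaperone of procollagen in the endoplasmic reticulum, and lies at chr11:75562056-75572783 on the plus strand. Its level was 1116, 1157 and 1217 CPM with siNC and 1264, 1222 and 1126 CPM with siZEB1. The cultures of both groups were interleaved. The log2 fold change was 0.05 (SE 0.06, 95% interval -0.07 to 0.17, adjusted p = 0.517), which bounds any change of this gene more tightly than that of the other 5 genes tested.

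SERPINB5 and SERPINA1 were close to the limit of detection and were removed by the filter on low counts. SERPINB5, which encodes maspin, an epithelial serpin known as a tumor suppressor, lies at chr18:63476761-63505085 on the plus strand and had 8, 3 and 3 reads with siNC and 0, 8 and 7 with siZEB1. The count of 0 in siZEB1 culture 1 allows a level of up to 0.159 CPM, counting error only. SERPINA1, which encodes alpha-1-antitrypsin, the main plasma inhibitor of neutrophil elastase, lies at chr14:94376747-94390693 on the minus strand and had 7, 5 and 16 reads with siNC and 7, 5 and 8 with siZEB1. When no filter was applied, the log2 fold changes were 0.22 (SE 0.70, adjusted p = 0.865) for SERPINB5 and -0.37 (SE 0.55, adjusted p = 0.689) for SERPINA1. A 2-fold change of either gene was not detectable at this depth, since it lay within 2 standard errors.

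**Figure D3:**
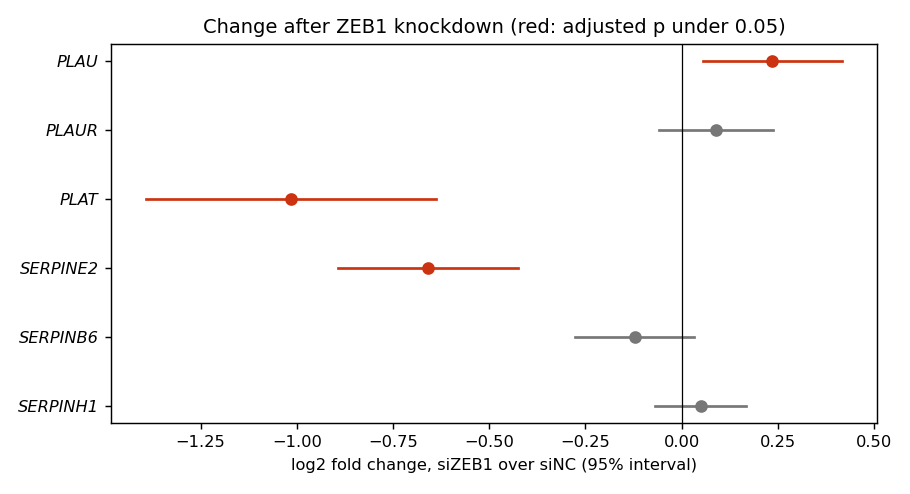
Log2 fold change of siZEB1 over siNC (x axis) with its 95% interval from edgeR's quasi-likelihood fit for the 6 genes tested; red marks an adjusted p under 0.05. The intervals of PLAT and SERPINE2 lie below 0, that of PLAU above 0, and those of PLAUR, SERPINB6 and SERPINH1 include 0.

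Compared per length of exon, the 8 genes spanned more than 3 orders of magnitude in the siNC cultures. The length was the union of all annotated exons of a gene and not that of 1 transcript. For PLAU it includes the bases that C10orf55 overlaps. SERPINH1 was the highest at 185 CPM per kilobase of exon, followed by PLAUR at 13.6 and PLAU at 6.04. SERPINB6 stood at 3.06, SERPINE2 at 1.51 and PLAT at 1.02 CPM per kilobase, and SERPINA1 and SERPINB5 at 0.0940 and 0.0563. The order of the means was the same with siZEB1, where PLAU reached 7.12, SERPINE2 0.952 and PLAT 0.504 CPM per kilobase. In both groups each gene's cultures were apart from those of the next gene in the order, except for SERPINA1 and SERPINB5, whose values overlapped. The order depends on the length used. The exon union was 13201 bases for SERPINB6 and 2950 for PLAU, and without it SERPINB6 (40.4 CPM with siNC) stood above PLAU (17.8 CPM). The RNA of PLAUR was therefore above that of PLAU, and that of PLAU above that of PLAT, in every culture on this scale.

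**Figure D4:**
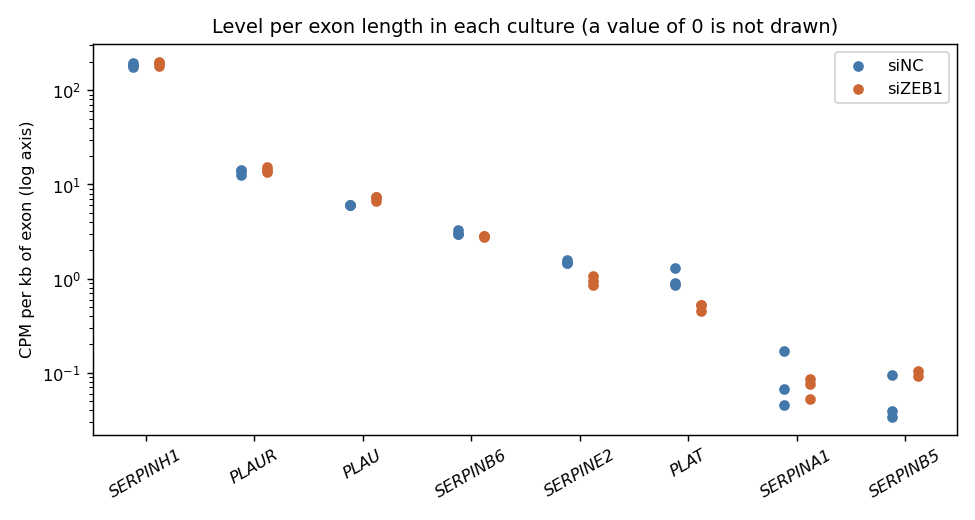
Level of each gene per length in each culture (y axis, CPM per kilobase of the union of annotated exons, log axis) for the 3 siNC and 3 siZEB1 cultures. The order from SERPINH1 (185 in the siNC mean) to PLAT (1.02) was shared by both groups, SERPINA1 and SERPINB5 overlapped near 0.1, and the siZEB1 culture with 0 SERPINB5 reads cannot be drawn on this axis.

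The sequence around the transcription starts was read for E-boxes, because ZEB1 binds motifs of this kind. The motifs searched were CACCTG and TACCTG on both strands (CAGGTG and CAGGTA when read on the gene's strand), of which a position can match only 1, in RefSeq windows of 250 bases before to 50 bases after each start (GRCh38.p14). PLAT had no entry in the RefSeq table, and the other 7 genes had 14 windows. CACCTG was present in 20.6% of all 35116 windows and TACCTG in 9.83%. Counted by gene, 24.1% of 27305 genes had CACCTG in any window and 11.8% had TACCTG. All matches are printed with the motif in capitals, since they are the only places in these windows where the genes carry the letters of a ZEB1-type E-box. A match is a description of letters and not of binding.
PLAU, position -233 from the start, chr10:73910887-73910916, plus strand: caggcccccggcCAGGTGcatgggaggaag
PLAU, position 41 from the start, chr10:73911160-73911181, plus strand: cgggccagggtcCACCTGtccc
SERPINB5, position -26 from the start, chr18:63476920-63476949, plus strand: ggcggtgctgccCAGGTGagccaccgctgc
SERPINH1, position -156 from the start, chr11:75562305-75562334, plus strand: cccagcccgaccCAGGTGaggggcgggaga
SERPINA1, position -192 from the start, chr14:94390810-94390839, minus strand: gggcaggtacaaCAGGTGacatgccgggct
SERPINA1, position -201 from the same start, chr14:94390819-94390848, minus strand: gagctgaaagggCAGGTAcaacaggtgaca
SERPINA1, position -219 from its other start, chr14:94388804-94388833, minus strand: tggtttctgagcCAGGTAcaatgactcctt

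PLAU was the only one of the 7 genes with a pair of CACCTG-type motifs in a single window, which is the window of its downstream start. Its other window held none. The share of all windows that hold such a pair was not counted. The window of PLAUR, both windows of SERPINE2 and the 4 windows of SERPINB6 held neither motif. Of the genes with a window, PLAU rose with a match and SERPINE2 fell without one, while SERPINH1 had a match in 1 of its 2 windows and passed no test. SERPINB5 and SERPINA1 carried matches but had too few reads to show a change. No relation between motif and response can be read from so few genes.

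The other genes of the system were taken from lists of its parts, whose counts stand against the 40.2% called over all genes tested. In the list of activators, zymogen and direct inhibitors, 7 of 14 genes were tested, of which 1 was higher (PLAU), 2 were lower (PLAT and SERPINE2) and 4 did not pass, with a median log2 fold change of -0.0037. SERPINA5, the protein C inhibitor that also blocks uPA, had 23, 24 and 15 reads with siNC and 6, 19 and 3 after knockdown. Its groups overlapped and its fitted change was -0.998 on the log2 scale (adjusted p = 0.101). SERPINF2, the gene of the plasmin inhibitor alpha-2-antiplasmin, stood at 0.45 on the same scale (adjusted p = 0.139). The 3 genes of this list that passed are all among the 8 genes chosen.

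Receptors that hold plasminogen or plasmin at the cell surface moved little. Of 7 such genes 6 were tested, and HMGB1 alone passed, rising by 0.17 on the log2 scale (adjusted p = 0.0148). Its call was lost, leaving 0 in the list, without siNC culture 2 or without siZEB1 culture 1 or 2. ANXA2 and S100A10, the subunits of the annexin A2 complex that binds tPA and plasminogen, had log2 fold changes of -0.11 (adjusted p = 0.0975) and -0.10 (adjusted p = 0.269). ENO1, a glycolytic enzyme that also binds plasminogen, was at 0.02 (adjusted p = 0.811), and the median of the list was below 0.01.

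Among the partners of uPAR and the receptors that clear complexes of activator and inhibitor, 16 of 21 genes were tested, 0 rose and 6 fell, and the median was -0.07. The number called is near the background share of 40.2%, which splits into 19.0% higher and 21.2% lower. EGFR, a receptor tyrosine kinase that signals together with uPAR, fell from 112 ± 11.5 to 57.5 ± 5.93 CPM (SD, n = 3 each). MRC2, also called uPARAP, a collagen uptake receptor that associates with uPAR, fell by 0.94 on the log2 scale (SE 0.14, adjusted p = 3.25e-05). LRP1, the endocytic receptor that takes up complexes of uPA or tPA with their inhibitors, had 444, 577 and 454 reads with siNC and 248, 259 and 260 after knockdown, or -0.80 on the log2 scale (adjusted p = 4.61e-06). The integrins ITGA3 and ITGA5 fell by 0.20 and 0.19 and LRP8 by 0.35 on the log2 scale. Vitronectin (VTN), the matrix ligand of uPAR, had between 0 and 6 reads per culture and was not tested.

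Of the 22 protein-coding serpin genes counted, 10 were tested, 0 rose, 5 fell and 5 did not pass. Over all genes tested 19.0% were higher and 21.2% lower. The median of the 10 genes was -0.29 on the log2 scale. Beside SERPINE2, the lower genes were SERPINF1 at -0.45, SERPINB8 at -0.37, SERPINB1 at -0.35 and SERPINB9 at -0.23. The first encodes the anti-angiogenic factor PEDF, and the last encodes the inhibitor of granzyme B. These 5 genes had log2 fold changes below 0 in all 13 fits, while SERPINB9 lost its call in 7 of the 12 alternatives. The 5 were picked by the main fit and the fits share cultures, so the kept direction is a description only. With a fold over 1.5 and an unadjusted p under 0.05, 0 of the 4 lower genes beside SERPINE2 passed. SERPINF2 at 0.45 and SERPINH1 at 0.05 were the only ones of the 10 with values above 0, and neither passed.

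SERPINB6 lies in a serpin cluster on chromosome 6 with SERPINB1 at chr6:2832332-2842006 and SERPINB9 at chr6:2887266-2903280. All 3 had lower means with siZEB1, and SERPINB6 was the one that did not pass. SERPINB5 lies in the cluster on chromosome 18, where SERPINB4, SERPINB7 and SERPINB2 also had few reads, with 1, 6 and 7 over all 6 cultures, while SERPINB8 in the same cluster had 1269. SERPINA1 lies on chromosome 14 near SERPINA10, SERPINA5 and SERPINA3, which had 3, 90 and 2 reads over all 6 cultures.

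Proteases listed here as possible serpin targets moved in both directions. Of 21 listed, 9 were tested, 3 were higher and 3 lower, with a median of -0.14. ST14, the membrane protease matriptase, which can activate pro-uPA, rose by 1.15 on the log2 scale (SE 0.21, adjusted p = 0.000298) from 1.41 ± 0.26 to 3.14 ± 0.25 CPM. PRSS22 rose by 1.46 and KLK6 by 0.56, whereas PRSS23 fell by 0.55 and CTSB, the lysosomal cathepsin B that can also activate pro-uPA, fell by 0.26. The remaining lower gene, KLK10, had a mean under 1 CPM.

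SERPINE2 also inhibits thrombin. In the list of the thrombin and tissue factor pathway, 9 of 18 genes were tested, 2 were higher and 1 lower. F2RL1, the protease-activated receptor PAR2, rose by 0.52 (adjusted p = 0.000234), and F3, tissue factor, rose by 0.28 (adjusted p = 0.0212). PROCR, the endothelial protein C receptor, fell by 1.02 on the log2 scale (adjusted p = 4.62e-05). The median of this list was -0.11.

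Among the proteins that uPA or plasmin activates or cuts, 13 of 23 genes were tested, 3 were higher and 2 lower, with a median of 0.08. LAMB3, a laminin chain, rose by 0.91, VEGFA by 0.51 and THBS1 by 0.37 on the log2 scale. FN1, fibronectin, fell by 0.94 (adjusted p = 6.78e-06) and TGFB1, whose latent form plasmin can activate, fell by 0.31 (adjusted p = 0.00136).

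SERPINH1 belongs to a list of 21 genes of procollagen folding and modification, itself included, of which 20 were tested, 3 were higher and 9 lower, with a median of -0.10. P4HB, the disulfide isomerase subunit of prolyl 4-hydroxylase, had 5228, 5821 and 5375 reads with siNC and 1504, 1512 and 1404 after knockdown, or -1.76 on the log2 scale (adjusted p = 3.93e-12). COLGALT2 fell by 0.70, P3H3 by 0.68 and CRTAP by 0.61, while FKBP14 rose by 0.47, FKBP10 by 0.25 and P4HA1 by 0.18. The interval of SERPINH1, -0.07 to 0.17, covers neither the fall of P4HB nor those of the other 3 lower genes named.

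**Figure D5:**
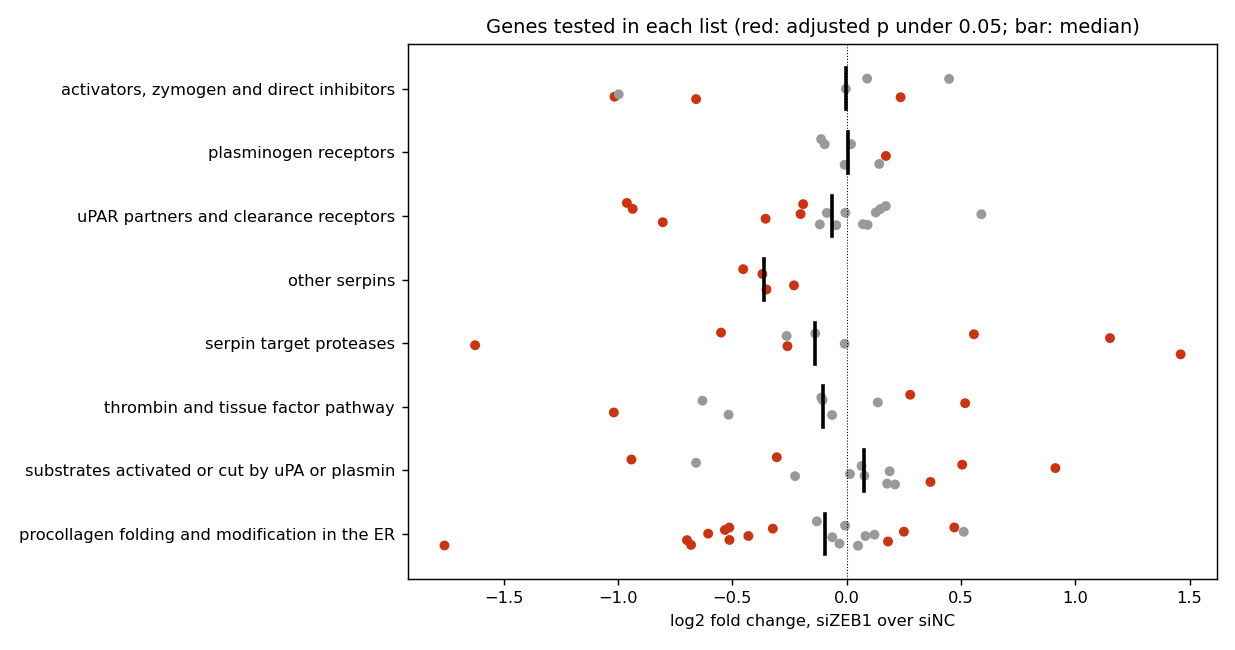
Log2 fold change of siZEB1 over siNC (x axis) for each tested gene of the 8 lists (rows), red for an adjusted p under 0.05 and grey otherwise, with a black bar at the median of each list. The list medians lie between -0.36 for the other serpins and 0.08 for the substrates, and the lowest point is P4HB at -1.76.

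The genes whose levels followed those of PLAU most closely over the 6 cultures were ZNF766, ZDHHC13 and ERLEC1, each with a Pearson r of 0.992 on log2(CPM + 0.1). For PLAUR they were COX6C with 0.993, DICER1-AS1 with 0.992 and AC009120.2 with 0.991. With 6 cultures and 14996 genes such values arise readily, so they are given as a description only.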

How the data were processed

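RNA was extracted with TRIzol from SW480 cultures and sequenced on an Illumina instrument. Per the labels, the authors used Trimmomatic, HISAT2, SAMtools and featureCounts with build hg38 and deposited raw read counts per gene for each library; versions, annotation release and strand setting are not given in the sources used here. The study's methods name biological replicates without saying how far apart they were grown, so p-values measure the spread between these cultures. Of the 32029 genes, 31059 matched GENCODE 29, from which positions and exon lengths (the union of all annotated exons) were taken.

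Genes were filtered with filterByExpr, scaled by TMM and tested with edgeR 4.0.16 (R 4.3.3) by the two-sided quasi-likelihood test without covariates, with Benjamini-Hochberg adjustment over all 14996 genes tested and a threshold of 0.05. Intervals are at 95%, and floors are 3 reads. Replicates differed beyond counting noise (chi-square per degree of freedom 2.27 to 9.58). Counts were simulated with 14996 genes, of which 200 with a mean of at least 1 CPM were changed 2-fold or 4-fold. Of the genes changed 2-fold 92% were recovered and of those changed 4-fold 99%, and 5.91% of calls were false. These rates do not cover changes under 2-fold, such as that of PLAU, or genes under 1 CPM. In the real data 40.2% of the genes tested were called. Alternatives were other size factors, other filters, DESeq2 1.42.0, a replicate block, leaving out each culture and the study's fold and p thresholds.

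The 8 genes and the lists were chosen with earlier results of these data known. Some genes are not reported here and were left out of the lists and counts of serpins, and 2 of the 5 read ratios with them. Named genes are the 8, ZEB1, SERPINB2, PLG, VTN, and in each list the 3 largest rises and falls that passed without overlap at a mean of at least 1 CPM, and the 3 genes most like PLAU or PLAUR. SERPINA5, SERPINF2, ANXA2, S100A10, ENO1, ITGA3, ITGA5, LRP8, KLK10, CRTAP, SERPINB9, C10orf55, KRT8, KRT18 and the serpins of the clusters were named after their values were seen.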

Additional observations from a re-analysis of the deposited data

How the results depend on the processing

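The falls of PLAT and SERPINE2 kept their direction and stayed past the threshold in all 12 alternative fits, and PLAUR, SERPINB6 and SERPINH1 kept their direction and did not pass in any. PLAU was the exception: its log2 fold change was 0.23 with no filter (adjusted p = 0.0921), 0.24 with DESeq2 (0.0588) and 0.21 to 0.28 without single cultures (0.0423 to 0.121). The number of the 8 genes called higher was therefore 0 with no filter, with DESeq2, with the replicate block and under both fold rules, and 0 to 1 without single cultures. The replicate numbers share no stated batch, and same-numbered cultures did not deviate together (r = -0.05, -0.09 and -0.20). With 3 cultures per group these values do not settle whether same-numbered cultures shared a batch. With the replicate block, 2305 genes were higher and 2686 lower, against 2852 and 3182 without it, PLAU stood at 0.23 on the log2 scale (adjusted p = 0.102) and 0 plasminogen receptors were called. With a fold over 1.5 and an unadjusted p under 0.05, 1079 genes were higher and 1398 lower, and at p under 0.001 there were 680 and 1008. Called under these rules, in that order, were 3 and 2 genes of the activator list, 0 and 0 plasminogen receptors and 3 and 3 partners of uPAR. The counts were 0 and 0 for the other serpins, 3 and 2 for proteases listed as possible serpin targets and 1 and 1 for thrombin pathway genes. They were 2 and 2 for substrates and 4 and 3 for procollagen genes. Leaving out single cultures gave 2297 to 2925 higher and 2645 to 3315 lower genes, and 0 to 1 plasminogen receptors. Depth limits SERPINB5, SERPINA1 and SERPINB2, which had 0 to 16 reads per library.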

Other observations

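The 7-mer GAACACA, picked because earlier results of these data had found it often in genes that fell, was looked up in the 3′UTR of 1 GENCODE 29 transcript per gene. None of the 8 genes holds it in that transcript, while 11.2% of the genes tested with a 3′UTR do. Among the genes tested with a 3′UTR, 45.2% of the 1375 that hold it were called lower, against 21.3% of the 10870 that do not. That difference is how the 7-mer was picked and is given as background only. PLAT and SERPINE2 are among the lower genes without this 7-mer in the 1 transcript searched, and what lowered them was not tested.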
